A study of Mus musculus with 6 samples.

Results

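The genes described here were 10 genes of the p53 pathway and of cellular senescence: Cdkn2a, Cdkn2b, Cdkn1a, Trp53, Mdm2, Zmat3, Ccng1, Gdf15, Bax and Lmnb1. They were found as the probe sets whose only gene symbol in the platform annotation was 1 of these names. This gave 13 of the 45101 probe sets on the array, for 7 of the 10 genes. Trp53, Gdf15 and Bax had no probe set named for them here and were not analysed. The study measured RNA of the whole choroid plexus from the lateral ventricle in male mice of the outbred CD1 strain, in 3 mice aged 18 months and 3 mice aged 2 months. No treatment or genetic change is named for either age. The labels number the samples as biological replicates and do not say whether tissue was pooled, and each array is called a mouse here. The arrays were Affymetrix 3' expression arrays, on which a probe set reports the same transcript between samples and does not give the abundance of one gene against another. In whole tissue, fewer cells of a type and less RNA per cell cannot be told apart.

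The transcription factor p53, encoded by Trp53, is kept low by the ubiquitin ligase Mdm2, which is itself a p53 target. Damaged DNA releases p53 from Mdm2, and p53 then induces genes that stop the cell cycle (Cdkn1a, Ccng1), that act on RNA (Zmat3), that open the mitochondrial membrane in apoptosis (Bax) or that encode a secreted stress hormone (Gdf15). Senescence is a lasting arrest in which the Cdkn2a and Cdkn2b products block the kinases Cdk4 and Cdk6, while lamin B1 (Lmnb1) is lost from the nuclear envelope and inflammatory factors are secreted. The plexus epithelium divides little in adult mice.

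The sequence that makes a gene a direct p53 target is a decamer motif, usually found as a closely spaced pair. The windows below are shown because these 3 genes are the measured p53 targets whose start site was covered by RefSeq's table, and because their level in single mice is followed further on. Each runs 5' to 3' on the gene's strand, from 250 bases before the annotated start to 50 after it (RefSeq, GRCm38.p6), with every p53 decamer in capitals. The windows lie at chr17:29090729-29091028 on the plus strand for Cdkn1a (the upstream of its 2 annotated starts), chr10:117710709-117711008 on the minus strand for Mdm2 and chr11:40755237-40755536 on the minus strand for Ccng1.
Cdkn1a: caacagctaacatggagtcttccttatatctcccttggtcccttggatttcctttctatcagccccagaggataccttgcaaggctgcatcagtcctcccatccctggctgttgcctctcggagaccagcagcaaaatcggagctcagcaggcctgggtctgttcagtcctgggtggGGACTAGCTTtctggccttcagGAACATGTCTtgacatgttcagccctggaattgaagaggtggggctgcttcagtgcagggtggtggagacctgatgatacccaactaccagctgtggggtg
Mdm2: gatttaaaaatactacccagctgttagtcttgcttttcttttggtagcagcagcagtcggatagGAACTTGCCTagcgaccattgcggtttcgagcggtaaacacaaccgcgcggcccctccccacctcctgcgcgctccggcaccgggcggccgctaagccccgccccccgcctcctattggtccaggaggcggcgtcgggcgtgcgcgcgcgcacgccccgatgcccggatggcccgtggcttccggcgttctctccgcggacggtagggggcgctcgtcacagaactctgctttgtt
Ccng1: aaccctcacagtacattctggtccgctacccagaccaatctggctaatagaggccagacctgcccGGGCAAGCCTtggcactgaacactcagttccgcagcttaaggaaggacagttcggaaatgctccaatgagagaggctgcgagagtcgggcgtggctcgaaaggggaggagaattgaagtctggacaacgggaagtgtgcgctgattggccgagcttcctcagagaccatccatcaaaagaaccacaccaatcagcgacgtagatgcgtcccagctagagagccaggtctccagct

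The Cdkn1a window held 2 decamers, GGACTAGCTT and GAACATGTCT, which start 73 and 51 bases before the transcription start and are 12 bases apart. The 10 bases that follow the second, tgacatgttc, match the p53 decamer at 9 of 10 positions. Mdm2 held 1 decamer, GAACTTGCCT, 186 bases before its start, and Ccng1 held 1, GGGCAAGCCT, 185 bases before its start. Of all 32851 start windows of this length in the table, 8.36% held at least 1 decamer and 0.0731% held a pair at most 13 bases apart, read on both strands, on which the motif is symmetric. The second Cdkn1a start, both Cdkn2a starts and the Cdkn2b start had no match in 300 bases. A match describes the letters of the window and not p53 binding.

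Over the whole array no gene passed. A gene was read from its brightest probe set and tested where the mean log2 intensity of that probe set over the 6 arrays was at least 4.92, called the filter here. Of 12681 genes tested, 0 (0% of those tested) had a limma adjusted p under 0.05 in either direction, the lowest being 0.0540. Before adjustment, 4.02% of the genes tested were higher at 18 months with a p under 0.05, and 3.03% were lower. The ranges of the ages were separate with 18 months above for 7.06% of genes and with 18 months below for 6.25%. Against these shares, 0 of the 6 tested genes of the set passed the adjusted threshold, 1 was higher (Zmat3) and 0 were lower at an unadjusted p under 0.05, and 1 had separate ranges (Mdm2, with 18 months below). The median difference of the 6 was -0.065 on the log2 scale, with 3 above 0 and 3 below, beside a median of 0.00 over all genes tested. Background was gauged with 27 probe sets for bacterial transcripts, whose mean log2 intensities had a median of 3.03 and a highest value of 4.51.

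**Figure D1:**
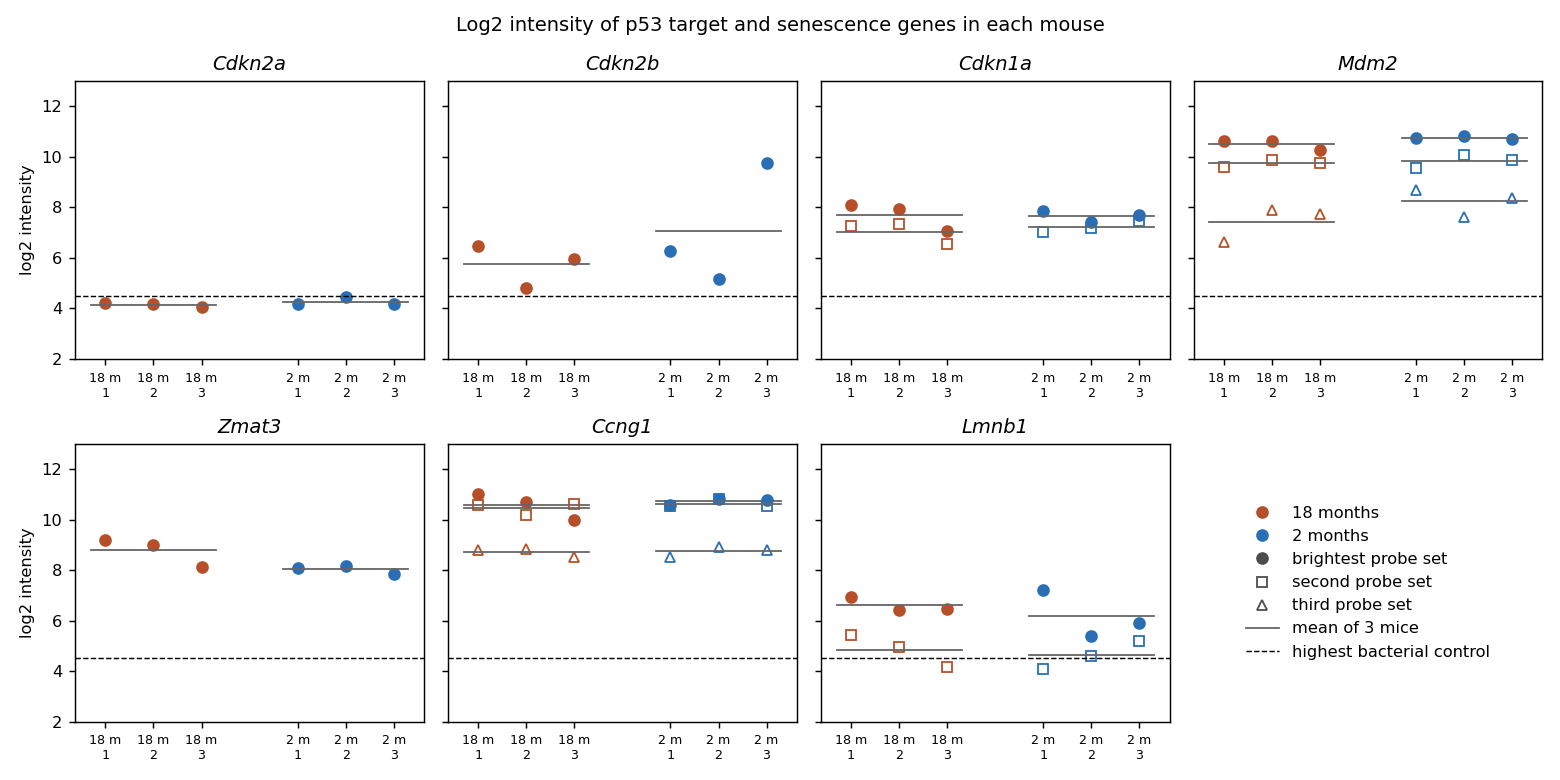
Log2 intensity (vertical axis) of every probe set of the 7 measured genes in each mouse, 18 months left of 2 months. Filled circles are the brightest probe set of a gene, open squares and triangles its further probe sets, horizontal bars the mean of 3 mice and the dashed line the highest bacterial control at 4.51. Cdkn2a lies under that line in all 6 mice, and Cdkn2b stands at 9.74 in 2-month replicate 3.

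Cdkn2a encodes p16Ink4a, an inhibitor of Cdk4 and Cdk6, and from another first exon p19Arf, an inhibitor of Mdm2, and p16Ink4a is a widely used marker of senescence. Its only probe set read 4.20, 4.20 and 4.07 log2 units in the 18-month mice, against 4.19, 4.45 and 4.17 in the 2-month mice. All 6 values lay under the highest bacterial control (4.51), so the array gave Cdkn2a no level above background at either age, and no fold is stated. The gene was under the filter and was not tested. This probe set carries the annotation of the gene as a whole, so p16Ink4a and p19Arf were not measured apart.

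Cdkn2b lies next to Cdkn2a and encodes p15Ink4b, which inhibits the same kinases. It was above the highest bacterial control in all 6 mice, with 6.49, 4.80 and 5.95 in the 18-month mice, against 6.26, 5.17 and 9.74 in the 2-month mice. A single animal, 2-month replicate 3, stood apart from the other 5. It exceeded the next highest mouse by 3.25 log2 units, or 9.49-fold, while the other 5 had a mean of 5.73 ± 0.72 (SD, n = 5). Of all genes tested, 27 (0.213%) had a single mouse that far above the rest, and in 4 of these it was the same mouse. The other genes of that kind in 2-month replicate 3 were Kirrel, Golga7b and Zfp974, with gaps of 4.36, 4.35 and 3.98, named after their values were seen.

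The age difference of Cdkn2b therefore rested on 1 mouse. The means were 5.75 ± 0.86 at 18 months and 7.05 ± 2.39 at 2 months (SD, n = 3 each), and the ages differed on the log2 scale by -1.31 (SE 1.15, limma adjusted p = 0.850). Its 95% confidence interval ran from -4.06 to 1.45, and its SE was larger than that of 99.7% of the genes tested. Without 2-month replicate 3 the difference was 0.036 (SE 0.59). Cdkn2b thus gave no estimate of an age difference that holds over the animals, in either direction.

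Cdkn1a encodes p21, the inhibitor of cyclin-dependent kinases through which p53 stops the cell cycle. The brighter of its 2 probe sets read 8.10, 7.94 and 7.07 at 18 months, against 7.86, 7.43 and 7.71 at 2 months. The means were 7.70 ± 0.55 at 18 months and 7.67 ± 0.22 at 2 months (SD, n = 3 each), and the 2-month values all lay inside the range of the 18-month values. The log2 difference was 0.036 (SE 0.30, limma adjusted p = 0.986), with a 95% interval from -0.69 to 0.77, or from 0.619-fold to 1.70-fold. Changes inside that interval could not be told from none with these 6 arrays. The second probe set read 7.25, 7.34 and 6.54 at 18 months, against 7.04, 7.17 and 7.45 at 2 months, a difference of -0.18 (SE 0.26). Both probe sets were lowest in 18-month replicate 3, and without that mouse the brighter one differed by 0.35 (SE 0.21).

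Mdm2 was measured by 3 probe sets. The brightest read 10.61, 10.62 and 10.27 at 18 months, against 10.73, 10.82 and 10.69 at 2 months, so that every 18-month mouse lay below every 2-month mouse. The means were 10.50 ± 0.20 at 18 months and 10.75 ± 0.07 at 2 months (SD, n = 3 each), and the ages differed on the log2 scale by -0.25 (SE 0.18, limma adjusted p = 0.819) or 1.19-fold lower, with a 95% interval from -0.67 to 0.17. The second probe set read 9.61, 9.88 and 9.74 at 18 months, against 9.56, 10.07 and 9.88 at 2 months, with overlapping ranges and a difference of -0.10 (SE 0.19). The dimmest read 6.65, 7.91 and 7.74 at 18 months, against 8.68, 7.63 and 8.39 at 2 months, with a difference of -0.80 (SE 0.42). All 3 estimates were below 0, and the ranges were separate in only the brightest.

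Zmat3 encodes a zinc-finger protein that binds RNA and is a direct p53 target. It had the smallest p of the set. Its probe set read 9.21, 8.99 and 8.14 at 18 months, against 8.07, 8.18 and 7.85 at 2 months. The first and second 18-month mice were above all 2-month mice, and the third, at 8.14, lay just under the highest 2-month mouse at 8.18. The means were 8.78 ± 0.57 at 18 months and 8.03 ± 0.17 at 2 months (SD, n = 3 each), and the ages differed on the log2 scale by 0.75 (SE 0.30) or 1.68-fold, with an unadjusted limma p of 0.0447 and an adjusted p of 0.706. As 4.02% of all genes tested were higher at that unadjusted level, 1 gene of 6 at 0.0447 is not a result about the set. Without 18-month replicate 3 the difference was 1.07 (SE 0.20, limma adjusted p = 0.507), while leaving out 18-month replicate 1 gave 0.54 (SE 0.31). Zmat3 gave a positive difference under every alternative run, from 0.54 to 1.07, and passed the adjusted threshold under none of them.

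Ccng1 encodes cyclin G1, which feeds back on p53 through Mdm2. Its brightest probe set read 11.00, 10.70 and 9.99 at 18 months, against 10.58, 10.83 and 10.78 at 2 months. The means were 10.56 ± 0.52 at 18 months and 10.73 ± 0.13 at 2 months (SD, n = 3 each), and the ages differed on the log2 scale by -0.17 (SE 0.28, limma adjusted p = 0.924), with a 95% interval from 0.559-fold to 1.42-fold. Its other probe sets gave differences of -0.16 (SE 0.19) and -0.03 (SE 0.18). They disagreed on single mice, since 18-month replicate 3 was the lowest of 6 on the brightest (9.99) and on the third (8.52), but the highest 18-month mouse on the second (10.61, with 10.58 and 10.19 in the other 18-month mice). The order of the mice in Ccng1 thus depends on the probe set. Every probe set gave an age difference smaller than its SE, and the interval above leaves its size open.

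Lmnb1 encodes lamin B1, whose loss marks senescent cells. Its brighter probe set read 6.95, 6.42 and 6.44 at 18 months, against 7.21, 5.39 and 5.92 at 2 months. The 18-month mean, 6.60 ± 0.30, was not below the 2-month mean, 6.17 ± 0.93 (SD, n = 3 each). The difference was 0.43 (SE 0.46, limma adjusted p = 0.876), with a 95% interval from 0.624-fold to 2.91-fold, and the highest mouse of all was 2-month replicate 1. Leaving out that mouse gave 0.95 (SE 0.28, limma adjusted p = 0.768), while leaving out 2-month replicate 2 gave 0.041 (SE 0.42). The dimmer probe set had a mean under the filter, was above the highest bacterial control in 4 of 6 mice and differed by 0.23 (SE 0.41).

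**Figure D2:**
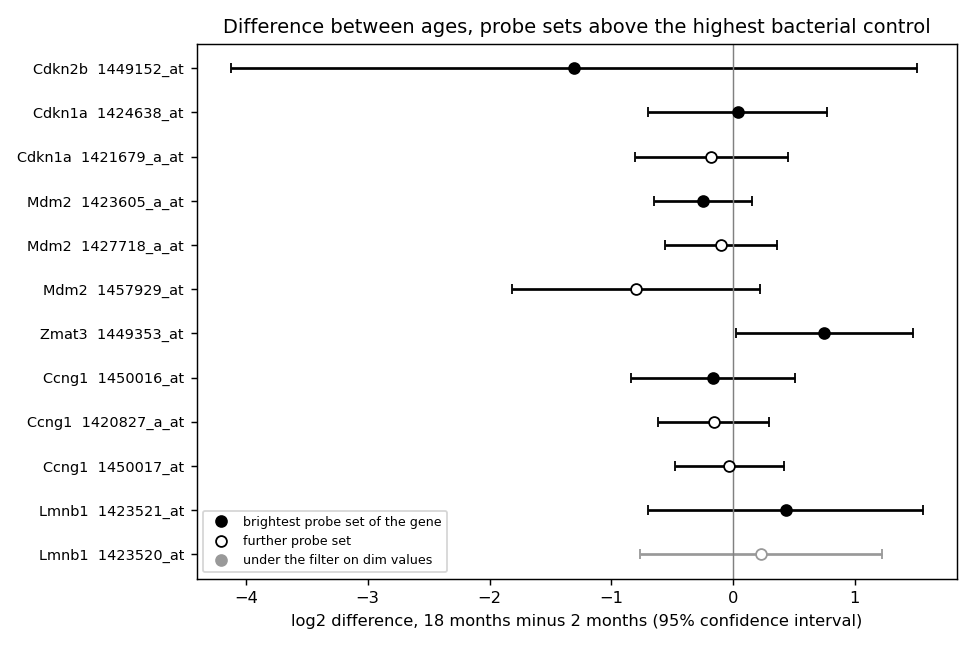
Log2 difference between 18 months and 2 months (horizontal axis) for each probe set above the highest bacterial control on at least 1 array (Cdkn2a is left out), with bars for the 95% confidence interval from the model over all probe sets. Zmat3, at 0.75, has the only interval that leaves out 0, and the interval of Cdkn2b is the widest.

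On their brightest probe sets, 3 of the 4 p53 targets had their lowest value in the same 18-month mouse. In 18-month replicate 3, Cdkn1a lay at -0.61, Ccng1 at -0.65, Mdm2 at -0.36 and Zmat3 at -0.27 log2 units relative to the mean of each gene over the 6 mice. Further probe sets did not all follow, since in that mouse the further ones of Mdm2 (9.74 and 7.74) and the second of Ccng1 (10.61) were not at their lowest. The 28 other tested p53 targets had a mean log2 intensity of 8.08, 7.91 and 7.88 in the 18-month mice, against 7.82, 7.92 and 7.86 in the 2-month mice, so that list was not lowest in 18-month replicate 3. Of the 11 probe sets of the set above the filter, 5 were lowest in that mouse, beside 20% of all probe sets above the filter. These 5 come from 3 genes, so they are not independent of each other. In 18-month replicate 1 the same 4 genes lay at 0.41, 0.35, -0.01 and 0.80. For these 4 genes the brightest probe sets had a larger spread at 18 months (SDs of 0.20 to 0.57) than at 2 months (0.07 to 0.22). The second probe set of Mdm2 (0.13 at 18 months, 0.26 at 2 months) and the third of Ccng1 (0.18 and 0.20) went the other way. Their remaining further probe sets had the larger spread at 18 months. Cdkn2b (0.86 and 2.39) and Lmnb1 (0.30 and 0.93) had the larger spread at 2 months. Each of these SDs rests on 3 mice, and those at 18 months include 18-month replicate 3. The share of all genes tested with the larger spread at 18 months was not counted. No age difference in spread is therefore read from these SDs.

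The same mouse had the most neuron signal, whose part in those values was not tested. The mean log2 intensity of 12 neuron markers (12 of 12 tested) was 6.46, 7.35 and 8.44 in the 18-month mice, against 7.22, 6.60 and 8.28 in the 2-month mice. In 2-month replicate 3, with nearly as much neuron signal as 18-month replicate 3, Cdkn1a lay at 0.03, Ccng1 at 0.14, Mdm2 at 0.06 and Zmat3 at -0.56 relative to their means, the last being the lowest Zmat3 value of the 6 mice. With the neuron level as a covariate the age differences were 0.049 (SE 0.29) for Cdkn1a, -0.24 (SE 0.16) for Mdm2, -0.15 (SE 0.24) for Ccng1 and 0.77 (SE 0.20) for Zmat3. Without 18-month replicate 3 and 2-month replicate 3, the neuron-richest mouse at each age, they were 0.38 (SE 0.26), -0.16 (SE 0.21), 0.15 (SE 0.24) and 0.98 (SE 0.22) in the same order, and none passed the adjusted threshold. Plexus epithelial markers, 10 of which were tested, kept a mean level of 12.44 to 12.53 at 18 months and 12.33 to 12.47 at 2 months.

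**Figure D3:**
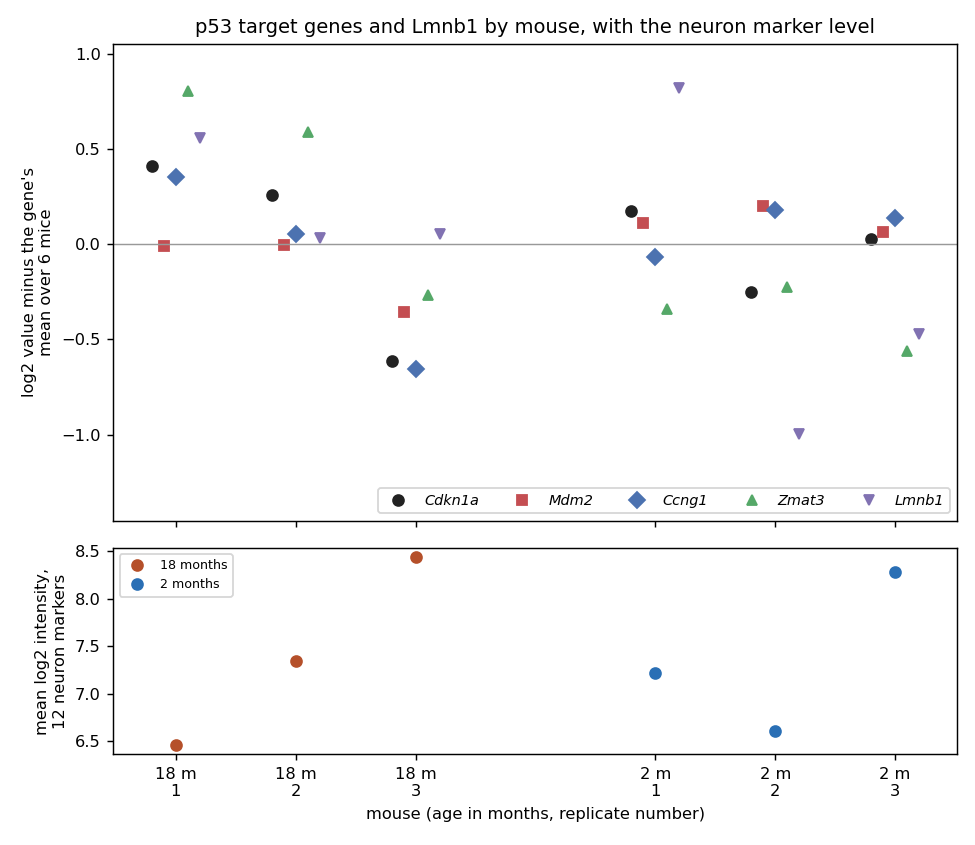
Upper panel, log2 value of 5 genes in each mouse minus the mean of the gene over the 6 mice. Lower panel, mean log2 intensity of the 12 neuron markers in the same mice. In 18-month replicate 3 the points of Cdkn1a, Mdm2 and Ccng1 are at their lowest and the neuron level is at its highest, 8.44, while Zmat3 is lowest in 2-month replicate 3.

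Genes with the profile nearest to Cdkn1a over the 6 mice were Tbc1d22b, Col4a3, Lrrc59, Dot1l and Dnm2, at root mean square distances of 0.05, 0.07, 0.08, 0.11 and 0.11 log2 units after each gene was centred on its own mean. Dnm2, a dynamin of endocytosis, was at 11.38, 11.23 and 10.66 in the 18-month mice, against 11.11, 10.73 and 11.01 in the 2-month mice, and was also lowest in 18-month replicate 3. Col4a3 encodes a collagen chain of basement membranes. None of the other genes of the set was among these 5. As the 5 were taken from 12681 genes tested, this says nothing about likeness within the set.

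Other targets of p53 were looked at as a list of 33 genes, of which 28 were tested. Of these, 17 had a difference above 0 and 11 below 0, with a median of 0.073, and 0 were higher and 0 lower at an unadjusted p under 0.05. The ranges were separate for 2 with 18 months above and 1 with 18 months below. The smallest p belonged to Dcxr, a carbonyl reductase, which read 9.09, 9.88 and 8.53 in the 18-month mice, against 8.48, 8.84 and 8.05 in the 2-month mice, for a difference of 0.71 (SE 0.38, limma adjusted p = 0.774). Next came Sesn1, a sestrin that restrains mTORC1, at 0.32 (SE 0.19), the sulfatase gene Sulf2 at 0.41 (SE 0.25) and Perp, a desmosomal and apoptosis gene, at -0.25 (SE 0.17). Further probe sets had estimates of the other sign for Sulf2 (-0.85, SE 0.47) and Sesn1 (-0.09, SE 0.34). The apoptosis gene Pmaip1 lay under the highest bacterial control in all mice, at 2.14 and 2.27 on average at 18 and 2 months.

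Regulators and partners of p53 gave 17 tested genes, 13 above 0 and 4 below, with a median of 0.089 and 0 at an unadjusted p under 0.05 in either direction. Those with the smallest p were the p53-binding genes Trp53bp2 (0.25, SE 0.16) and Trp53bp1 (0.23, SE 0.17), the p53 relative Trp73 (-0.33, SE 0.24), which read 7.38, 7.91 and 7.59 at 18 months against 8.17, 8.12 and 7.58 at 2 months, and the DNA damage kinase gene Atr (0.32, SE 0.24). Further probe sets of Trp53bp1 gave -0.23 (SE 0.20) and 0.43 (SE 0.20), among others, and a second of Atr gave -0.28 (SE 0.35). Of the BCL-2 family and the apoptosome, 16 were tested, 7 above 0 and 9 below, with a median of -0.030 and again 0 at that level. The initiator caspase gene Casp9 was at 0.53 (SE 0.24), the pore-forming Bok at 0.43 (SE 0.21), the BH3-only Bad at -0.38 (SE 0.23) and the protective Mcl1 at 0.23 (SE 0.17).

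Among the other inhibitors and drivers of the G1 phase, 19 were tested, 12 above 0 and 7 below, with a median of 0.074. With an unadjusted p below 0.05 there were 0 higher and 1 lower. This was Rb1, the retinoblastoma protein that Cdk4 and Cdk6 phosphorylate, which read 7.06, 6.42 and 6.98 in the 18-month mice, against 7.27, 7.52 and 8.02 in the 2-month mice. All 18-month mice were below all 2-month mice, and the difference was -0.78 (SE 0.27, limma adjusted p = 0.682). A second Rb1 probe set lay under the highest bacterial control at both ages. Of the D cyclins, Ccnd1 was at 0.070 (SE 0.26), Ccnd2 at -0.73 (SE 0.32) and Ccnd3 at 0.42 (SE 0.20). None was past the unadjusted threshold on its brightest probe set, and differences between them were not tested. Further Ccnd2 probe sets were all above the filter and all below 0, from -0.89 (SE 0.28) to -0.22 (SE 0.17). Ccnd1 was named after its value was seen. E2f1, which Rb1 restrains, was at 0.34 (SE 0.20) on its brightest probe set, while its other probe sets gave -0.52 (SE 0.36) and -0.22 (SE 0.23).

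Polycomb proteins keep the Cdkn2a locus silent. The list of Polycomb genes also held Kdm6b (-0.19, SE 0.32), whose product, a histone demethylase, opposes them. In this list 12 genes were tested, 6 above 0 and 6 below, with a median of 0.0084. With an unadjusted p below 0.05 there were 0 higher and 1 lower, the histone methyltransferase gene Ezh2, which read 6.40, 6.29 and 6.28 in the 18-month mice, against 9.05, 7.41 and 6.68 in the 2-month mice. The 2-month mice were all above the 18-month mice but differed widely among themselves (7.71 ± 1.22, against 6.32 ± 0.07 at 18 months, SD, n = 3 each), and the difference was -1.39 (SE 0.57, limma adjusted p = 0.707). Cbx7, which reads the methyl mark, was at 0.56 (SE 0.27), Rnf2, the ubiquitin ligase of the complex, at 0.55 (SE 0.28) and Cbx6 at -0.26 (SE 0.20). Further Cbx7 probe sets gave 0.21 (SE 0.24) and -0.11 (SE 0.24).

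Among proliferation genes, of 22 listed, 13 were tested, 4 above 0 and 9 below, with a median of -0.19, and 0 were higher and 1 lower at an unadjusted p under 0.05. The one lower was Mcm6, a subunit of the replication helicase, which read 2.55, 4.52 and 5.20 in the 18-month mice, against 7.54, 8.04 and 5.88 in the 2-month mice (limma adjusted p = 0.568). It passed the filter only through the 2-month mice, as its 18-month mean of 4.09 lay under the highest bacterial control, so no fold is given and its count supports nothing about the list. Both further Mcm6 probe sets were under the filter. The mitotic kinase gene Cdk1 was at -0.30 (SE 0.17), Mki67 at -0.69 (SE 0.60) and Rrm1, of nucleotide reduction, at -0.23 (SE 0.21), with a second Rrm1 probe set at 0.22 (SE 0.44).

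Secreted factors of senescent cells were in part dim and in part bright. Of 38 listed, 34 had a probe set of their own, of which 15 were tested and 19 were under the filter. Over the whole array, 12681 of 18193 genes with a probe set of their own were tested. Bright factors included Igfbp2 (13.04 at both ages) and Timp2 (12.05 at 18 months and 11.99 at 2 months). Of the 19 under the filter, 11 had means under the highest bacterial control at both ages. Those 11 included the interleukin genes Il6 (2.10 at 18 months and 2.20 at 2 months on average) and Il1a (2.08 at 18 months and 2.14 at 2 months) and the protease gene Mmp12 (2.50 at 18 months and 2.34 at 2 months). The rest of the 19 had a mean above that control at 1 age or both and were not tested. Among them Ccl8 averaged 5.19 at 18 months and 3.17 at 2 months, and Hgf 4.20 and 5.35, each above the control in 3 of 6 mice. Both were named after their values were seen. The 15 tested were 9 above 0 and 6 below, with a median of 0.062, and 0 at an unadjusted p under 0.05 in either direction. The membrane protease gene Mmp14 read 8.32, 8.25 and 8.38 at 18 months, against 7.31, 8.24 and 7.51 at 2 months, at 0.63 (SE 0.27, limma adjusted p = 0.710). All 18-month mice lay above the 2-month mice, the second 2-month mouse by very little. Igfbp3 was at -0.37 (SE 0.24), the adhesion gene Icam1 at 0.81 (SE 0.55) and the chemokine gene Cxcl12 at 0.43 (SE 0.45).

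Genes of the nuclear lamina and envelope other than Lmnb1 numbered 13 tested, 4 above 0 and 9 below, with a median of -0.14 and 0 at an unadjusted p under 0.05. Sun1 (0.47, SE 0.21) and Syne2 (0.73, SE 0.34), which link the nucleus to the cytoskeleton, Banf1 (0.34, SE 0.18) and Tmpo (-0.40, SE 0.24) had the smallest p. Further probe sets above the filter had estimates of the other sign for Sun1 (-0.20, SE 0.28), Syne2 (-0.72, SE 0.39) and Tmpo (0.53, SE 0.29). The integrated stress response, which with p53 controls Gdf15, gave 10 tested genes, 5 above 0 and 5 below, with a median of 0.044, 1 higher and 1 lower at an unadjusted p under 0.05. Phgdh, the entry enzyme of serine synthesis, read 11.87, 11.92 and 11.88 at 18 months, against 10.65, 11.13 and 11.39 at 2 months (0.83, SE 0.22, limma adjusted p = 0.568), while its other 3 probe sets gave 0.09 to 0.39. Atf4, the transcription factor of this response, was at -0.50 (SE 0.19, limma adjusted p = 0.682). Of TGF-beta family genes around Gdf15, 8 were tested, 5 above 0 and 3 below, with a median of 0.047 and 0 at that level, among them Smad7 at -0.25 (SE 0.18) and Smad4 at 0.26 (SE 0.21). A second Smad7 probe set gave 0.37 (SE 0.19).

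**Figure D4:**
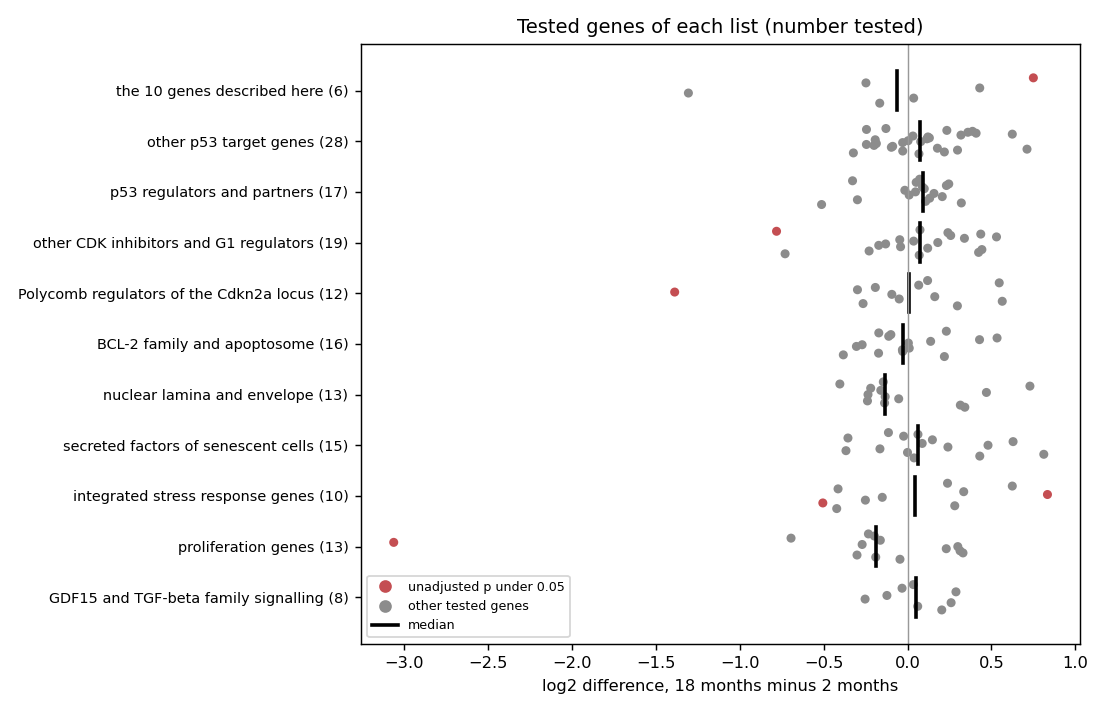
Log2 difference between 18 months and 2 months (horizontal axis) of every tested gene in the lists named at left, with the number tested. Black bars are medians, which lie between -0.19 (proliferation genes) and 0.089 (p53 regulators), and red points have an unadjusted p under 0.05. The leftmost, Mcm6, has an 18-month mean under the highest bacterial control.

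Markers of other cells in these samples gave the setting of the values above. Macrophage and microglia markers had 13 tested, 10 above 0, with a median of 0.59. At an unadjusted p under 0.05, 4 of them were higher, beside 4.02% of all genes tested, among them the lysozyme gene Lyz2 at 1.36 (SE 0.31). Their mean level was 8.33, 7.79 and 8.27 at 18 months, against 7.55, 7.57 and 7.87 at 2 months. Ependymal markers had 9 tested, 8 below 0, with a median of -0.31. Of these, 2 were lower at that level, beside 3.03% of all genes tested, and 1 of the 2, Fam183b, had an 18-month mean of 4.55, under the filter. For oligodendrocytes the median was 0.23 over 9 tested, for astrocytes 0.25 over 7, for endothelium 0.19 over 7, for stromal fibroblasts -0.48 over 7 and for lymphocytes -0.13 over 5. At that unadjusted level 2 oligodendrocyte markers were higher, and no astrocyte, endothelium or lymphocyte marker differed. Fibroblast markers did not move together, with 1 higher and 1 lower. Pdgfra was at 1.95 (SE 0.22, limma adjusted p = 0.118), with further probe sets at 1.29 (SE 0.39) and 0.04 (SE 0.24), and Dcn was at -0.72 (SE 0.25). Leaving out each mouse in turn gave medians of -0.27 to 0.63 for oligodendrocytes and -0.33 to 0.37 for endothelium, so the sign of both depended on single mice. The part of these cells in the values of Zmat3, Rb1, Ezh2 and Mcm6 was not tested.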

How the data were processed

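Total RNA of lateral ventricle choroid plexus was amplified to cDNA and hybridised to Affymetrix arrays, per the labels' protocols. Each array was treated as 1 independent mouse, which the labels do not state. The authors deposited RMA intensities on a linear scale, per the submitters' processing notes and the values. Versions and a genome build were not given in the sources used here. The log2 of each intensity was taken. Names came from the annotation of the array platform, and probe sets with several symbols were left out. The brightest probe set stood for a gene, and 12681 genes with a mean log2 value of at least 4.92 (the 40th percentile of non-control probe sets) were tested. The ages were compared with limma 3.58.1 in R 4.3.3 (18 months minus 2 months, two-sided, Benjamini-Hochberg over all genes tested, threshold 0.05), and the fit was tested on simulated data. Further probe sets came from the same model fitted to all 45037 non-control probe sets. Start-site windows were RefSeq's (GRCm38.p6).

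The 10 genes and all lists were chosen with earlier results of these data known. The text names the 10 genes, for each list up to 4 genes of lowest p, and the 5 genes nearest to Cdkn1a. Kdm6b, Igfbp2, Timp2, Il6, Il1a, Mmp12 and the p53 targets under the filter fall outside that rule. They were named after their values were seen, as were the other genes marked so in the text. Alternatives were 2 other filters, the mean of all probe sets, 2 normalizations, a replicate block, array weights, a neuron covariate and leaving out mice. Trp53, Gdf15 and Bax had no probe set named for them here and were not analysed.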

Additional observations from a re-analysis of the deposited data

How the results depend on the processing

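Under 15 alternatives, none of Cdkn2b, Cdkn1a, Mdm2, Zmat3, Ccng1 and Lmnb1 passed an adjusted p of 0.05 by limma. Mdm2 (-0.38 to -0.13), Zmat3 (0.54 to 1.07) and Lmnb1 (0.041 to 0.95) kept their sign throughout. The sign turned for 3 genes. Leaving out each mouse in turn gave -2.25 to 0.036 for Cdkn2b, -0.16 to 0.35 for Cdkn1a and -0.38 to 0.12 for Ccng1. Cdkn1a was -0.072 with the mean of its probe sets, and Ccng1 was 0.15 without the neuron-richest mouse at each age, a setting added after seeing the data. For Cdkn2b and Ccng1 the sign turned only where 2-month replicate 3 or 18-month replicate 3 was left out. The cause was not tested for the others.

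The count of genes called over the whole array was 4 with the 60th percentile filter, 5 with the mean of all probe sets, 5 with median centring, 4 with array weights and 1 with the neuron covariate. None of the genes described here was among them. It was 0 with no filter, with quantile normalization and without any single mouse. With the replicate number as a block it was also 0, and the lowest adjusted p was 0.324. Deviations of same-numbered mice from their age means correlated at -0.02, 0.02 and 0.17, beside -0.15 to 0.14 for the other pairs. The value of 0.17 was the highest of all, and 2 of 3 18-month mice correlated best with their own number. Median differences moved beyond the spread between mice in 5 settings for p53 regulators (0.017 to 0.21), 4 for the integrated stress response (-0.15 to 0.28), 3 for the TGF-beta family (-0.038 to 0.22), 2 for the nuclear lamina (-0.21 to -0.018) and 1 each for the CDK inhibitors, endothelium, macrophages and stromal fibroblasts. That spread is the SD between mice of an age in the mean level of the list, and it differs between lists. In the 18-month mice the mean level was 8.96, 8.94 and 8.94 for p53 regulators, against 6.46, 7.35 and 8.44 for neurons. The neuron median ran from -0.38 to 0.43 without counting as moved, so these counts do not rank lists by stability. The median changed sign in at least 1 setting for the integrated stress response, the TGF-beta family, the other p53 targets, the CDK inhibitors, Polycomb genes, the BCL-2 family and the markers of epithelium, neurons, oligodendrocytes and endothelium. Lymphocyte markers had no value with the 60th percentile filter. The number of arrays limits every value, and probe sets near the bacterial controls have no usable level.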
